A study of Homo sapiens with 8 samples.

Results

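Mitochondrial ribosomal proteins were described in DLD1, a human colorectal adenocarcinoma cell line, after knockdown of PPA2, the mitochondrial inorganic pyrophosphatase. Members were all genes whose symbol is MRPL or MRPS followed by a number and at most 1 letter, with pseudogenes and antisense genes left out. This gave 78 genes, 49 of the large subunit (MRPL) and 29 of the small subunit (MRPS) by symbol, of 60234 genes in the normoxia table and 60612 in the hypoxia table. The cells carried a control hairpin RNA (shNT, with WT as the genotype label) or one directed at PPA2 (shPP), and were kept for 12 h in normoxia or in hypoxia. There were 8 libraries of poly(A) RNA in 4 groups of 2, namely shNT and shPP at each oxygen level. The labels name 1 hairpin against PPA2 and no rescue, and do not say whether the 2 libraries of a group came from separate cultures, so the p-values reflect the spread of these libraries alone, which may be technical.

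The mitochondrial ribosome translates the few membrane proteins of the respiratory chain and ATP synthase that are encoded in mitochondrial DNA. Its ribosomal RNAs, MT-RNR1 in the small subunit and MT-RNR2 in the large one, are transcribed inside the organelle. All of its proteins are encoded in the nucleus, made in the cytosol and imported, some with a counterpart in the bacterial ribosome and others added during the evolution of mitochondria.

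The labels were checked first on the targeted gene. PPA2 was at 79.8 and 84.1 RPKM in the normoxic shNT libraries and at 5.88 and 5.74 in shPP, and at 65.5 and 50.8 FPKM against 9.85 and 9.0 under hypoxia. RPKM and FPKM are reads or fragments scaled to transcript length and sequencing depth, a scale meant for comparing levels between genes of a table. In the normoxia table this is not safe for every gene: the cytosolic ribosomal protein genes RPS10 and RPL36A were at 1.74 and 1.16 and at 2.40 and 2.23 RPKM in shNT, and at 609 and 586 and at 429 and 368 FPKM under hypoxia. The estimated depth of the normoxia libraries was 28023447 to 35717528 reads, and the depth behind the hypoxia values is unknown. The epithelial markers EPCAM, CDH1, KRT8, KRT18, KRT19 and CDX2 were each above 39 in every library, and VIL1 was low, at 3.24 and 3.35 RPKM in normoxic shNT and 0.55 and 0.69 in shPP. The markers of fibroblasts, immune cells and endothelium that could be matched stayed below 1 in every library.

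The starts of the members often held letters of motifs bound by factors that act on nuclear genes for mitochondria. The 250 bases before each RefSeq start (GRCh38.p14) were searched on both strands for GCGC, any base and TGCGC in a row (NRF1), CCGGAAG (ETS family) and AAGATGGCG (YY1), and no matches of different motifs overlapped in the members. Of 69 members with an entry, 35 (50.7%) held at least 1 match, against 15.8% of 27305 gene symbols and 21.6% of 15843 coding genes. All members are coding genes. The ETS letters were found in 25 members (36.2%, against 13.98% of coding genes and 10.2% of all symbols), the NRF1 letters in 9 (13%, against 8.72% and 6.2%) and the YY1 letters in 3 (4.35%, against 0.972% and 0.784%). A gene with several starts was counted once if any of them had a match, and 11 members had more than 1 start. Strong falls under hypoxia were also seen without a match: MRPL4 (-1.38), MRPL12 (-1.13) and MRPL55 (-1.11) had an entry and none of the motifs. The stretches below were chosen from members with a match, and are read 5′ to 3′ on the gene's strand with matches in capitals. They are shown for 5 members that fell strongly under hypoxia and for MRPL51 and MRPL45, which changed little or less there.
MRPL38 (chr17:75905061-75905117, minus strand): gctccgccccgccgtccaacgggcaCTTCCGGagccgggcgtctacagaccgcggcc
MRPS21 (chr1:150293825-150293860, plus strand): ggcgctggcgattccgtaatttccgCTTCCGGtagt
MRPL20 (chr1:1407294-1407362, minus strand): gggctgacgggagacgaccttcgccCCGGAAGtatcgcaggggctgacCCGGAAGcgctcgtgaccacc
MRPL36 (chr5:1799840-1799959, minus strand): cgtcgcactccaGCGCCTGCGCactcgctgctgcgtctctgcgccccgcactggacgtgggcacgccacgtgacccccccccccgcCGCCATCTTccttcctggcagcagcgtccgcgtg
MRPL52 (chr14:22829764-22829856, plus strand): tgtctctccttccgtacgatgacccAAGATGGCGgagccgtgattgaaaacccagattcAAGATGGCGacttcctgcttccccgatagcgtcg
MRPL51 (chr12:6493335-6493406, minus strand): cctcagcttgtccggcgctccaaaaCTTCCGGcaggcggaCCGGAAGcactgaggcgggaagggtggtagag
MRPL45 (chr17:38296954-38297013, plus strand): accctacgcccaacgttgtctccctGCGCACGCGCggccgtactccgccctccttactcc

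MRPL20 had 2 ETS matches in the same direction within 44 bases of its start, and MRPL52 had 2 YY1 matches. MRPL36 had the NRF1 letters on the gene's strand and the YY1 letters on the other strand, whereas MRPL51 had ETS letters on both strands and MRPL45 the NRF1 letters 180 to 189 bases before its start. A match describes the letters only. Members with and without a match are given side by side, with no test. Under hypoxia 32 of 35 members with a match were lower in shPP, with a median log2 difference of -0.62, and 27 of 34 without one, with a median of -0.59, where 33.8% of all genes tested were lower.

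**Figure D1:**
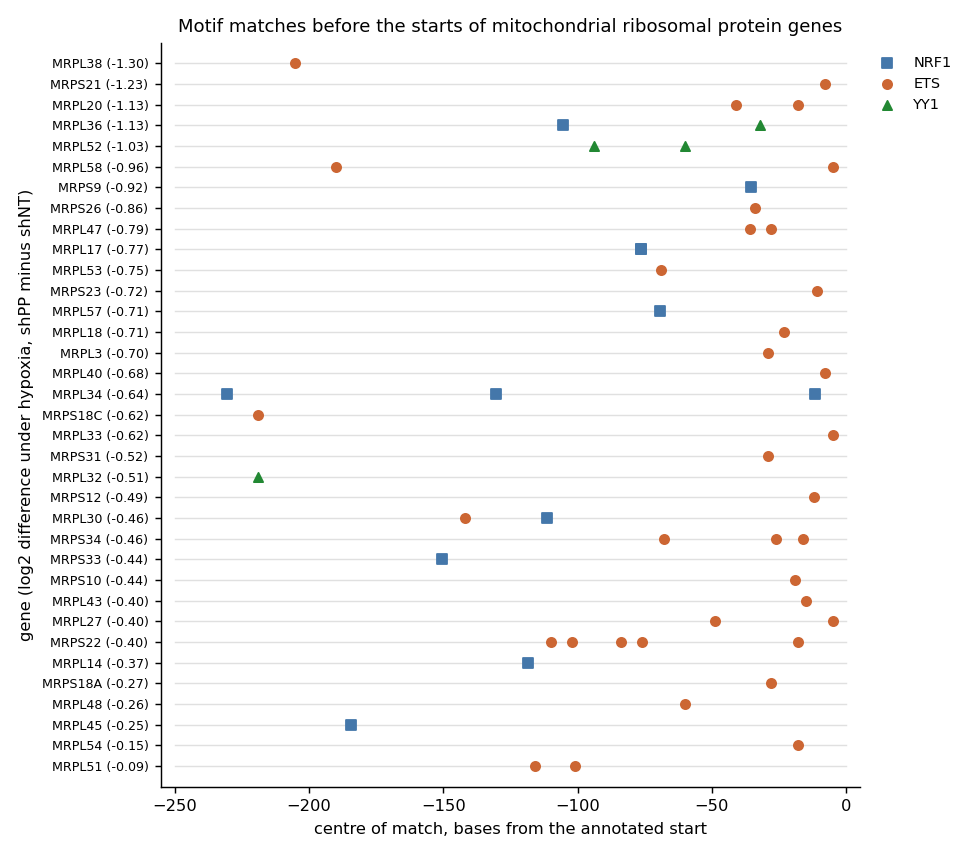
Matches of the NRF1, ETS and YY1 letters in the 250 bases before annotated starts of 35 members, plotted as the centre of each match in bases from the start (where a gene has several starts, each match is placed from its own). Genes are ordered by their log2 difference under hypoxia, given in brackets, from MRPL38 (-1.30) at the top to MRPL51 (-0.09) at the bottom. Only members with a match are drawn, so the order cannot show how matches relate to the differences.

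In control cells the members were listed at a wide range of levels, and the order under normoxia is that of the deposited values, with the limit given above. The median member was at 34.3 RPKM in both normoxic shNT libraries and at 32.2 and 29.4 FPKM in the hypoxic ones. The highest under normoxia were MRPL51 (158 and 163 RPKM), MRPL3 (122 and 127), a core protein near the peptidyl transferase centre, and MRPL41 (98.0 and 96.8). Under hypoxia they were MRPL3 (80.8 and 76 FPKM), MRPS15 (79.2 and 69.5), a small subunit protein that binds the ribosomal RNA, and MRPL41 (75.8 and 66.2). Each of these 3 overlapped its neighbour in that order under hypoxia, so the order there is not fixed. The lowest under hypoxia were MRPL42 (9.63 and 6.12 FPKM), MRPS23 (7.63 and 7.94) and MRPS17 (9.24 and 8.13), and the libraries of MRPL42 spanned those of the other 2.

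The lowest levels under normoxia belonged to MRPS24, listed at 0 in both shNT libraries, MRPL53 (0.081 and 0.190 RPKM) and MRPS17 (2.26 and 2.70). MRPS24 was at 68.5 and 63.5 FPKM and MRPL53 at 31.6 and 28.2 FPKM in hypoxic shNT, in a table that was made and normalized apart. In GENCODE 29, MRPS24 lies within URGCP-MRPS24, MRPL53 overlaps CCDC142, and MRPS17 overlaps NIPSNAP2, each on the same strand. Among 13 members that overlap a coding gene on their strand, the median log2 ratio of the hypoxia to the normoxia level in shNT was 1.06, against -0.34 in the 65 others, and the part of the overlap in these levels was not tested. The 2 tables were therefore not used to compare oxygen levels, and each knockdown comparison stays within 1 table. MRPS24 and MRPL53 had a mean below 1 under normoxia and were not tested there, which left 76 members.

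Under normoxia a part of the members was lower in shPP, by small amounts. Of 76 members tested, 30 were lower in shPP, 2 were higher and 44 did not pass (limma on log2(value + 1), Benjamini-Hochberg adjusted p under 0.05 over all 14090 genes tested). Over all genes tested 11.7% were lower and 22.5% higher. With median-ratio scaling these shares were 17.3% and 16.3%, and 38 of the 76 members were lower and 0 higher. Without that scaling, 12.9% of genes within the members' range of mean values were lower. The median log2 difference of the members was -0.14, against 0.07 over all genes. The libraries of the 2 groups did not overlap in 46 members that were lower in shPP and in 8 that were higher, where 26.4% and 44.2% of all genes showed this. Leaving out 1 library at a time moved the count of lower members to between 15 and 29, with 15 without shNT replicate 1 and 16 without shNT replicate 2, and 11 of the 30 stayed called in each of these 4 fits.

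MRPL37, a large subunit protein added in mitochondria, had the lowest log2 difference under normoxia. It was at 83.3 and 89.5 RPKM in shNT and at 55.2 and 49.98 in shPP, a log2 difference of -0.71 (SE 0.07, limma adjusted p 0.00127). MRPL45, which ties the ribosome to the inner membrane at the tunnel exit, was at 36.6 and 39.6 RPKM in shNT and 23.8 and 23.5 in shPP (-0.66, SE 0.06, limma adjusted p 0.00108). MRPL58, a peptidyl-tRNA hydrolase that is built into the large subunit, was at 43.8 and 41.4 RPKM against 28.4 and 26.1 (-0.63, SE 0.06, limma adjusted p 0.00153). In each of these 3 genes both shPP libraries lay below both shNT libraries.

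The next were MRPL44 (-0.51), a protein of the ribonuclease III family, MRPL21 (-0.50), MRPS26 (-0.48), MRPL4 (-0.45), which lines the exit tunnel, and MRPL20 (-0.44), a protein of the bacterial L20 family. MRPS27, a pentatricopeptide repeat protein of the small subunit, fell from 75.8 and 74.0 RPKM to 57.9 and 57.9 (-0.36, SE 0.05, limma adjusted p 0.00314). MRPL41 was at 98.0 and 96.8 RPKM in shNT and 85.0 and 67.1 in shPP (-0.36, SE 0.10), and its limma adjusted p of 0.0381 became 0.0525 without shNT replicate 1. Among the 10 members with the lowest differences, 8 belonged to the large subunit, which made up 48 of the 76 tested.

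MRPS14, a protein of the small subunit head, and MRPS6, of its platform, were the 2 members that were higher under normoxia. MRPS14 was at 15.9 and 16 RPKM in shNT and 18.9 and 18.5 in shPP (0.22, SE 0.06, limma adjusted p 0.0282). MRPS6 was at 31.2 and 28.9 RPKM against 35.8 and 33.8 (0.20, SE 0.06, limma adjusted p 0.0461). Neither held in all fits: MRPS6 lost its call whichever library was left out (limma adjusted p up to 0.307) and MRPS14 without shNT replicate 1, shNT replicate 2 or shPP replicate 1 (up to 0.172). At the other end, MRPS35 (0.01), MRPS22 (0.01) and MRPS11 (-0.01) had the smallest differences.

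Under hypoxia most members were lower in shPP. Of 78 tested, 66 were lower in shPP, 1 was higher and 11 did not pass by the same limma test over 13080 genes. Over all genes tested, 33.8% were lower and 24.6% higher, 58.4% in all, and within the members' range of mean values 38.6% were lower. The median log2 difference of the members was -0.62, against -0.06 over all genes. With 1 library left out, the members' median ranged from -0.70 to -0.54. In 75 members both shPP libraries lay below both shNT libraries (44.9% of all genes) and in 1 above (35.5%). The summed level of the members was 2742 and 2471 FPKM in shNT and 1699 and 1728 in shPP. In these bulk libraries, fewer cells of a kind and less RNA per cell cannot be told apart.

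MRPL4 had the lowest difference under hypoxia. It was at 48.9 and 47.8 FPKM in shNT and at 17.7 and 18.2 in shPP, a log2 difference of -1.38 (SE 0.07, limma adjusted p 2.8e-05). MRPL38, of the central protuberance that bridges both subunits, was at 61.0 and 47.5 FPKM against 21.7 and 20.8 (-1.30, SE 0.12, limma adjusted p 0.00017). MRPS21, of the bacterial S21 family, was at 24.1 and 21.2 FPKM against 9.52 and 8.64 (-1.23, SE 0.09, limma adjusted p 9.9e-05). The 2 shPP libraries were alike in each of these genes and below both shNT libraries.

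MRPL21 (-1.19), MRPL20 (-1.13), MRPL12 (-1.13), MRPL36 (-1.13), MRPL55 (-1.11), MRPL52 (-1.03) and MRPL58 (-0.96) came next. MRPL12, the stalk protein that receives translation factors, went from 55.2 and 49.4 FPKM to 24.1 and 22.7. MRPL20 went from 64.6 and 53.3 to 25.9 and 26.5 FPKM. The large subunit made up 49 of the 78 members tested. Of the 10 lowest members, 9 were of the large subunit, and all 10 remained called when any 1 of the 4 libraries was left out.

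MRPS6 was the 1 member that rose under hypoxia. It was at 45.1 and 40.2 FPKM in shNT and 65.7 and 66.3 in shPP (0.62, SE 0.07, limma adjusted p 0.000536), with no overlap, and the call held in each fit with 1 library left out. MRPS6 overlaps SLC5A3, a sodium-coupled myo-inositol transporter gene, on the same strand of chromosome 21. SLC5A3 itself was at 13 and 17.2 FPKM in shNT and 72.3 and 72.0 in shPP (2.20, SE 0.12, limma adjusted p 4.06e-05), and under normoxia at 8.0 and 8.08 RPKM against 11.3 and 12.9. How the counting shared reads between both genes is not given in the sources used here, so the value of MRPS6 is uncertain, and the part of SLC5A3 in it was not tested.

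The 11 members that did not pass under hypoxia were MRPL10, MRPL19, MRPL23, MRPL28, MRPL42, MRPL48, MRPL49, MRPL51, MRPL54, MRPS14 and MRPS27. The smallest differences were those of MRPL10 (-0.02, SE 0.10), MRPL49 (-0.04, SE 0.07) and MRPL51 (-0.09, SE 0.10). MRPL51 was at 64.0 and 53.6 FPKM in shNT and 52.5 and 57.4 in shPP, so its groups overlapped. MRPL42 missed the threshold with -0.39 (SE 0.18), its shNT libraries being at 9.63 and 6.12 FPKM.

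**Figure D2:**
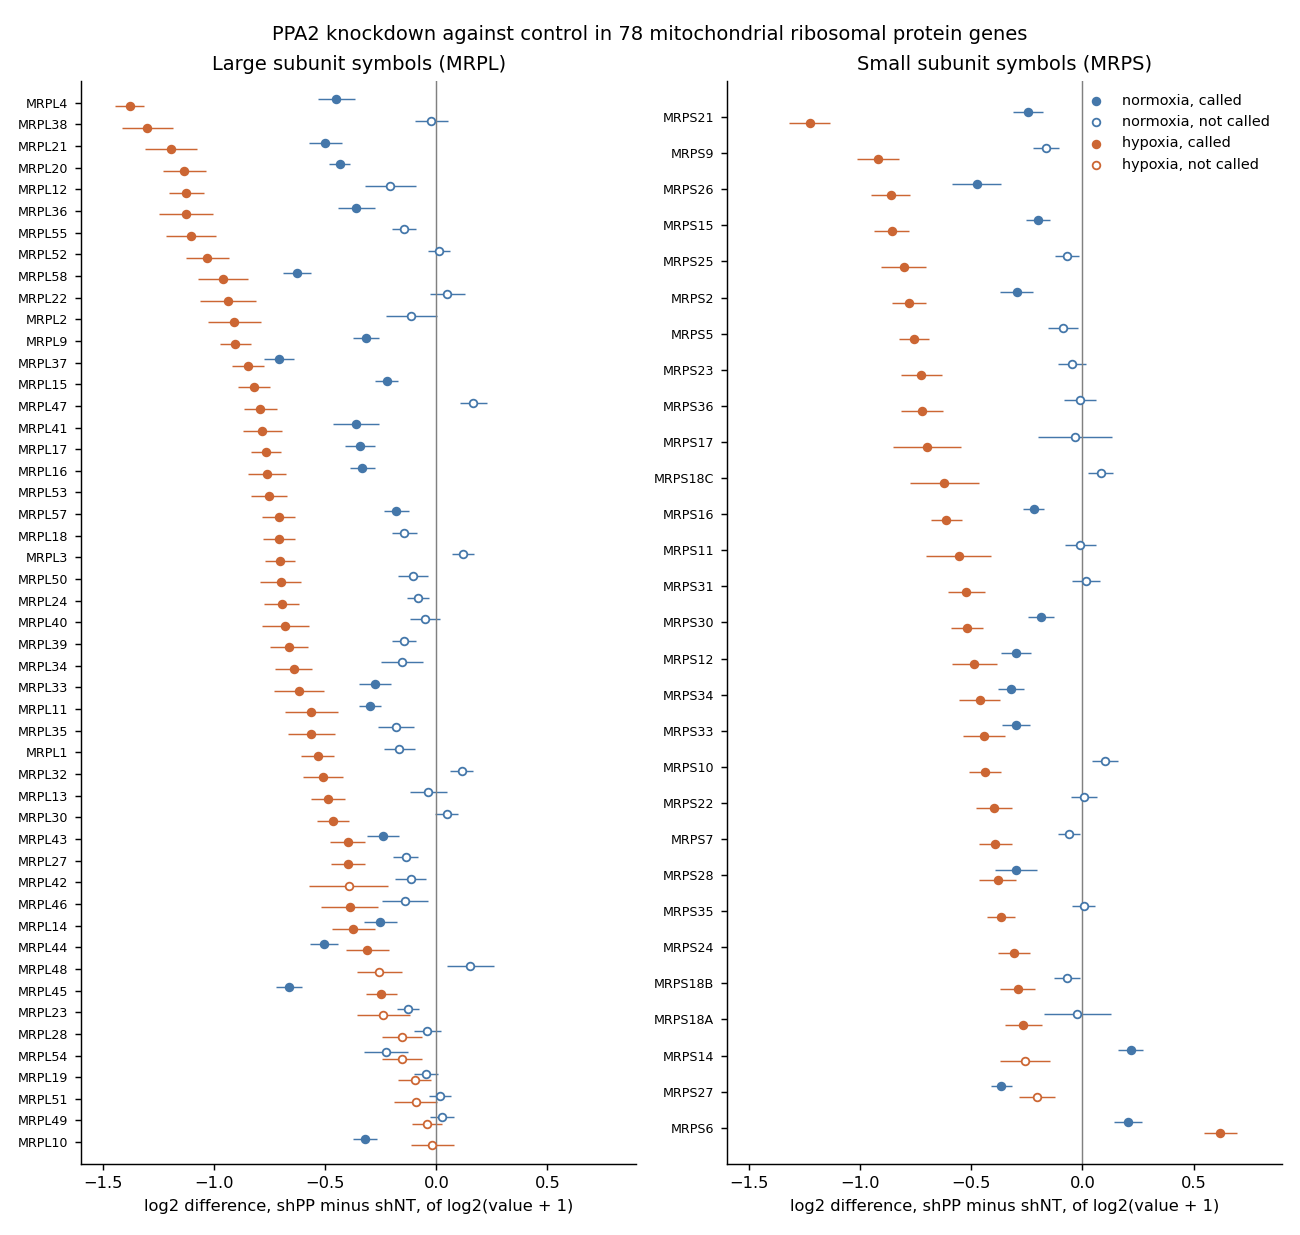
Log2 difference, shPP minus shNT, of log2(value + 1) for the 78 members under normoxia (blue) and hypoxia (orange), with standard errors from limma; filled points are called at an adjusted p under 0.05, and MRPL53 and MRPS24 have no normoxia point. Under hypoxia nearly all points lie left of 0, down to -1.38 for MRPL4, and MRPS6 stands alone on the right at 0.62.

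The 2 knockdown responses were then compared gene by gene. Of 76 members tested in both tables, 28 were lower in both, 36 were lower under hypoxia only by the call, 2 under normoxia only (MRPL10 and MRPS27), 8 passed in neither, MRPS6 was higher in both and MRPS14 was higher under normoxia alone. Of all 12060 genes tested in both tables, 7.89% were lower in both, 23.5% were lower under hypoxia and not called under normoxia, 3.59% the reverse, 28.6% passed in neither, 12.1% were higher in both and 8.8% were higher under normoxia and not called under hypoxia. In 70 of the 76 members (92.1%) the difference was more negative under hypoxia, as it was in 62% of all genes. The test of the difference itself, the interaction term of a limma fit of all 8 libraries, called 46 of these 76 members (60.5%) more negative under hypoxia and 2 more positive, against 30.6% and 13.8% of the 12060 genes. MRPL53 and MRPS24 were called too, which makes 48 of 78, but they entered that fit through the hypoxia table alone and their normoxia values were near 0, so their values repeat the change under hypoxia and are not read as a difference. Over all 13585 genes in that fit, 29% were called more negative and 13.4% more positive, and within the members' range of mean values 33.1% were more negative. The median of the members was -0.44, against -0.13 over all genes. With median-ratio scaling these medians were -0.30 and -0.0045, and without mitochondrial genome genes -0.31 and -0.017. With 1 library left out, they ranged from -0.53 to -0.37 for the members and from -0.14 to -0.11 over all genes. Across the 76 members the differences under normoxia and hypoxia were weakly related, with a Pearson r of 0.31 and a Spearman rho of 0.27. Without MRPS6 these were 0.25 and 0.24. The points are genes of the same libraries and not independent replicates.

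MRPL38 had the most negative difference of responses. Under normoxia it was at 25.4 and 25.5 RPKM in shNT and 26.7 and 23.4 in shPP (-0.02, SE 0.07), against the -1.30 under hypoxia, a difference of -1.28 (SE 0.15, limma adjusted p 0.000177). MRPL52 was at 45.4 and 46.3 RPKM against 46.0 and 46.4 under normoxia, and at 42.7 and 36.8 FPKM against 20.1 and 17.8 under hypoxia (difference of responses -1.04, SE 0.12, limma adjusted p 0.000129). MRPL22, a protein of the exit tunnel wall, was at 15.9 and 16.1 RPKM against 17.9 and 15.5, and at 20.004 and 15.5 FPKM against 8.24 and 9.23 (-0.99, SE 0.16, limma adjusted p 0.00106). In these 3 genes the groups overlapped under normoxia and lay apart under hypoxia.

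MRPS21 (-0.98, SE 0.12) and MRPL55 (-0.96, SE 0.13) completed the 5 most negative differences of responses. MRPS21 was called lower under normoxia as well (-0.25, limma adjusted p 0.0301), a call lost without shNT replicate 1, shNT replicate 2 or shPP replicate 2 (adjusted p up to 0.182), while MRPL55 had -0.15 there and did not pass. MRPL38 overlaps an unnamed coding gene model (AC087289.3) on its strand, and the part of that overlap was not tested. MRPS14 was at 16.5 and 13.1 FPKM in hypoxic shNT and 12.3 and 11.9 in shPP, and its difference of responses of -0.48 (SE 0.13, limma adjusted p 0.0166) was lost without shNT replicate 1, shNT replicate 2 or shPP replicate 1 of normoxia or shPP replicate 2 of hypoxia (adjusted p up to 0.0591).

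MRPL45 went the other way. It fell under normoxia by 0.66 and under hypoxia from 32.6 and 31.5 to 25.9 and 27.8 FPKM (-0.25, SE 0.07, limma adjusted p 0.0199), a difference of responses of 0.42 (SE 0.09, limma adjusted p 0.00555). Its call under hypoxia was lost without shPP replicate 1 or shPP replicate 2 (adjusted p up to 0.196). The pseudogene MRPL45P2 was at 6.12 and 5.92 RPKM in shNT and 5.04 and 5.39 in shPP, and at 6.96 and 7.20 FPKM against 3.44 and 3.78, with log2 differences of -0.18 and -0.81. How reads of such near copies were assigned is not known here, and their part in the values of MRPL45 was not tested. MRPS6 was the other member with a more positive response (0.42, SE 0.10, limma adjusted p 0.00858). MRPL10, a stalk protein, was at 23.9 and 23.4 RPKM against 18.8 and 18.7 and at 20.2 and 16.8 FPKM against 18.4 and 17.9, but its difference of responses did not pass (0.30, SE 0.12, limma adjusted p 0.0597), and its call under normoxia was lost without shNT replicate 1 (adjusted p 0.0506).

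**Figure D3:**
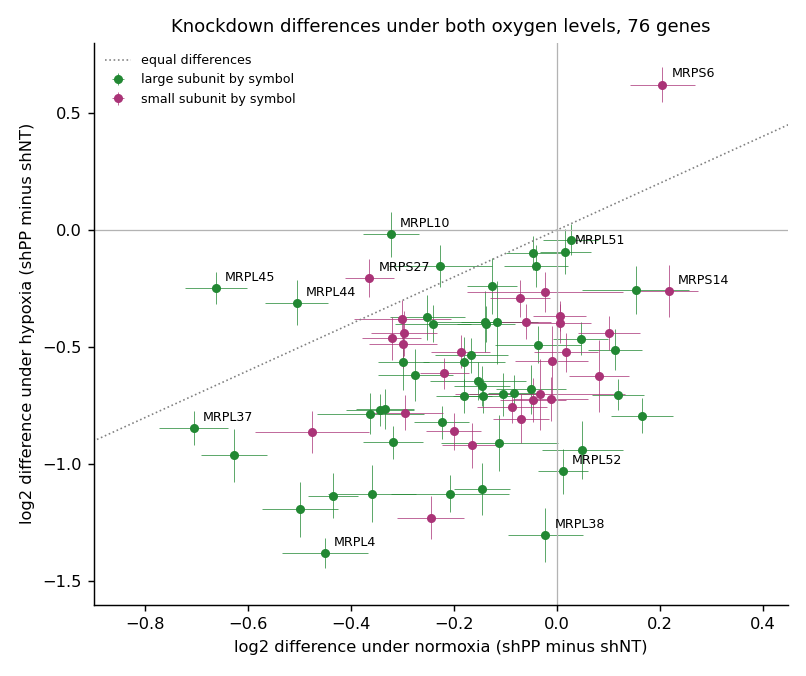
Log2 difference under hypoxia against that under normoxia for 76 members, with standard errors, large subunit in green and small subunit in purple; the dotted line marks equal differences. Most genes lie below the line, MRPL38 and MRPL52 near 0 on the x axis and below -1 on the y axis, while MRPL45 and MRPL10 lie above it.

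**Figure D4:**
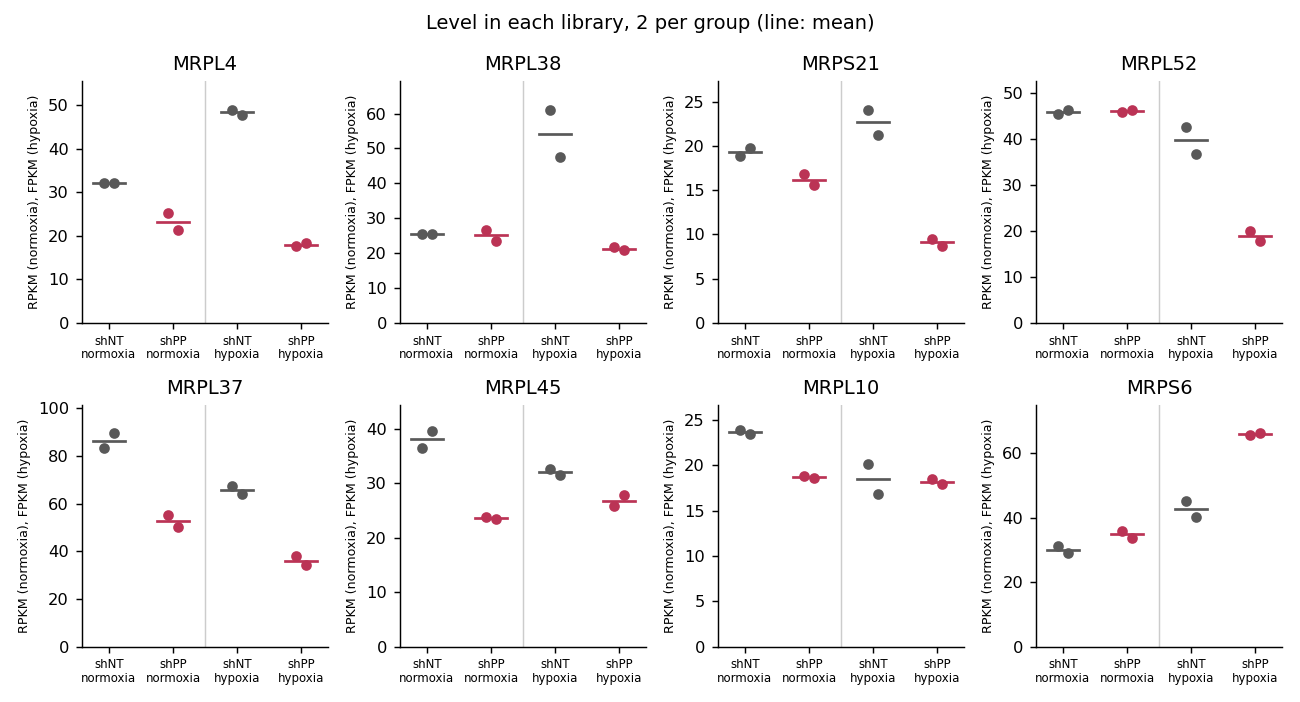
Level of 8 members in each of the 8 libraries (points) with group means (lines), in RPKM for normoxia and FPKM for hypoxia, 2 tables that are not on a common scale. MRPL38 and MRPL52 are level between shNT and shPP under normoxia and apart under hypoxia, MRPL10 shows the reverse, and MRPS6 is higher in shPP at both.

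Both subunits took part. Under normoxia 19 of 48 large subunit members were lower and 0 higher by limma (1 was higher at an unadjusted p under 0.05), with a median of -0.15, and 11 of 28 small subunit members were lower and 2 higher, with a median of -0.07. Under hypoxia 40 of 49 large subunit members were lower (median -0.68), and 26 of 29 small subunit members were lower and 1 higher (median -0.52). The ratio of the summed large to the summed small subunit level was 2.40 and 2.37 in normoxic shNT and 2.32 and 2.35 in shPP. Under hypoxia it was 1.88 and 1.82 in shNT and 1.61 and 1.60 in shPP. In each table the shPP libraries lay below the shNT libraries, narrowly so under normoxia. The small subunit sum includes MRPS6, which was higher in shPP in both tables and whose value is uncertain. These ratios, and the narrow normoxia gap above all, depend in part on that gene. MRPS24 and MRPL53 were near 0 in the normoxia table, so the gaps of the 2 tables are not compared. The shares over all genes tested were 11.7% lower and 22.5% higher under normoxia, and 33.8% and 24.6% under hypoxia. No test was made of the subunits against each other.

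Symbols do not always give the place of a protein. MRPS18A and MRPS30 sit in the large subunit and MRPS36 belongs to the oxoglutarate dehydrogenase complex. With these moved or left out, 42 of 51 large subunit members were lower under hypoxia (median -0.67) and 23 of 26 of the small subunit (median -0.50). MRPS36 fell under hypoxia from 16 and 13.7 to 8.52 and 8.61 FPKM (-0.72, SE 0.09, limma adjusted p 0.000752) and had -0.01 under normoxia. MRPS30 fell in both (-0.19 and -0.52), though its normoxia call was lost whichever library was left out (limma adjusted p up to 0.344).

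The 3 relatives of bacterial S18 did not pass under normoxia and were lower under hypoxia. MRPS18C had the lowest difference, from 21 and 15.6 to 12.8 and 10.2 FPKM (-0.62, SE 0.15), MRPS18B had -0.29 (SE 0.08) and MRPS18A -0.27 (SE 0.08). Each call hung on 1 or 2 libraries. MRPS18C lost it without shNT replicate 1 (limma adjusted p 0.0643), MRPS18B without shPP replicate 1 (0.119), and MRPS18A without shNT replicate 1 or shPP replicate 1 (up to 0.263).

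By origin, 42 of 48 members with a bacterial counterpart and 24 of 30 members added in mitochondria were lower under hypoxia, with medians of -0.62 and -0.52. Under normoxia these were 18 of 47 and 12 of 29, with medians of -0.15 and -0.14. For these groups and those by place, the shares over all genes were 11.7% lower and 22.5% higher under normoxia. Under hypoxia they were 33.8% and 24.6%. By place, the 4 members of the large subunit core near the peptidyl transferase centre (MRPL2, MRPL3, MRPL4, MRPL16) were all lower under hypoxia, with a median of -0.84. Each was called more negative there than under normoxia, where 30.6% of all genes tested in both tables were. MRPL16 lost this call without shNT replicate 1 of normoxia (-0.39). MRPL2 was at 3.55 and 2.94 RPKM in normoxic shNT and at 26.2 and 20.3 FPKM in hypoxic shNT. Its response under normoxia (-0.11, SE 0.11) thus rests on low values, and its difference of responses is uncertain. MRPL3, which was at 122 and 127 RPKM against 133 and 138 under normoxia and did not pass (0.12, SE 0.05), went from 80.8 and 76 to 48.9 and 46.6 FPKM (-0.70, SE 0.07, limma adjusted p 0.000216). Of 7 members of the central protuberance, 0 were called by limma under normoxia, where 2 were lower at an unadjusted p under 0.05 (median -0.05, from -0.14 to 0.15), and 6 were lower under hypoxia (median -0.68). Of 7 members at the tunnel exit, 3 were lower under normoxia and 6 under hypoxia, and of the stalk 2 of 4 and 3 of 5. In the small subunit head and decoding region (MRPS7, MRPS9, MRPS10, MRPS12, MRPS14), 1 of 5 was lower and 1 higher under normoxia and 4 were lower under hypoxia. MRPS12, of the decoding centre, was lower in both (-0.30 and -0.49), though not under normoxia without shNT replicate 2 (limma adjusted p 0.0792).

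Both ribosomal RNAs were higher in shPP at each oxygen level, where most of the proteins were lower under hypoxia and most did not pass under normoxia. MT-RNR1 was at 321 and 295 RPKM in normoxic shNT and 446 and 451 in shPP (0.55, SE 0.06, limma adjusted p 0.00169), and at 380 and 434 FPKM against 1187 and 1197 under hypoxia (1.55, SE 0.08). MT-RNR2 was at 1459 and 1440 RPKM against 2501 and 2521 (0.79, SE 0.06), and at 1087 and 1073 FPKM against 3936 and 3875 (1.85, SE 0.08). All 4 shPP values of each gene lay above the shNT values of the same table. The libraries were made from poly(A) RNA, which holds only a part of these RNAs. RPKM and FPKM are shares, so a rise of mitochondrial RNA lowers all others: rescaled without the 37 mitochondrial genome genes, the median of all genes under hypoxia moved by 0.17 to 0.10, that of the members was -0.43, and 56 members were lower. Over all genes 22.9% were then lower and 35% higher. The members' median relative to that of all genes was -0.55 as deposited and -0.53 after rescaling. Rescaling divides all genes of a library by the same factor, so this relative value could hardly change and is no check.

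The other genes of mitochondrial translation were read from lists chosen for their function. Their counts stand beside 11.7% lower and 22.5% higher over all genes under normoxia, and 33.8% and 24.6% under hypoxia. The 5 ribosomal proteins with other names (DAP3, PTCD3, CHCHD1, AURKAIP1, GADD45GIP1) were all lower under hypoxia (median -0.93), and 1 of 5, AURKAIP1, under normoxia. DAP3, a GTP-binding protein of the small subunit, was at 88.1 and 87.3 RPKM against 91.2 and 94.3 and at 80.4 and 78.5 FPKM against 40.6 and 41.1 (difference of responses -1.02, SE 0.07). PTCD3, a pentatricopeptide repeat protein, had 0.09 under normoxia and -0.93 under hypoxia.

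Of the genes for ribosome assembly and rRNA modification, 9 of 26 were lower and 2 higher under normoxia. Under hypoxia 19 of 27 were lower and 1 higher (median -0.55). Among all genes tested, 11.7% were lower and 22.5% higher under normoxia, and 33.8% and 24.6% under hypoxia. MPV17L2, which aids ribosome assembly at the inner membrane, had -1.19 under hypoxia and METTL17, an assembly factor of the small subunit, had -1.16. NGRN, which binds MT-RNR2, was higher in both (0.56 and 0.30). Of the translation factors, 4 of 14 were lower under normoxia and 12 of 15 under hypoxia (median -0.61), and 0 were higher in either by limma, with 1 under normoxia and 0 under hypoxia at an unadjusted p under 0.05. MRRF, the ribosome recycling factor, went from 31.0 and 37.3 to 12.4 and 10.7 FPKM (-1.49, SE 0.11), and OXA1L, which inserts the products into the inner membrane, fell in both (-0.57 and -1.32). SLIRP, which binds mitochondrial messenger RNA, had -0.06 under normoxia and -1.46 under hypoxia.

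Cytosolic ribosomal proteins, the parts of the ribosome that serves the rest of the cell, were lower too. Of these, 44 of 82 were lower under normoxia (median -0.22) and 71 of 83 under hypoxia (median -0.57). The share called lower was 53.7%, against 39.5% of the mitochondrial proteins, under normoxia and 85.5%, against 84.6%, under hypoxia. Among all genes tested it was 11.7% and 33.8%. Lower levels were thus seen in both kinds of ribosomal protein, and the 2 lists were not tested against each other.

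**Figure D5:**
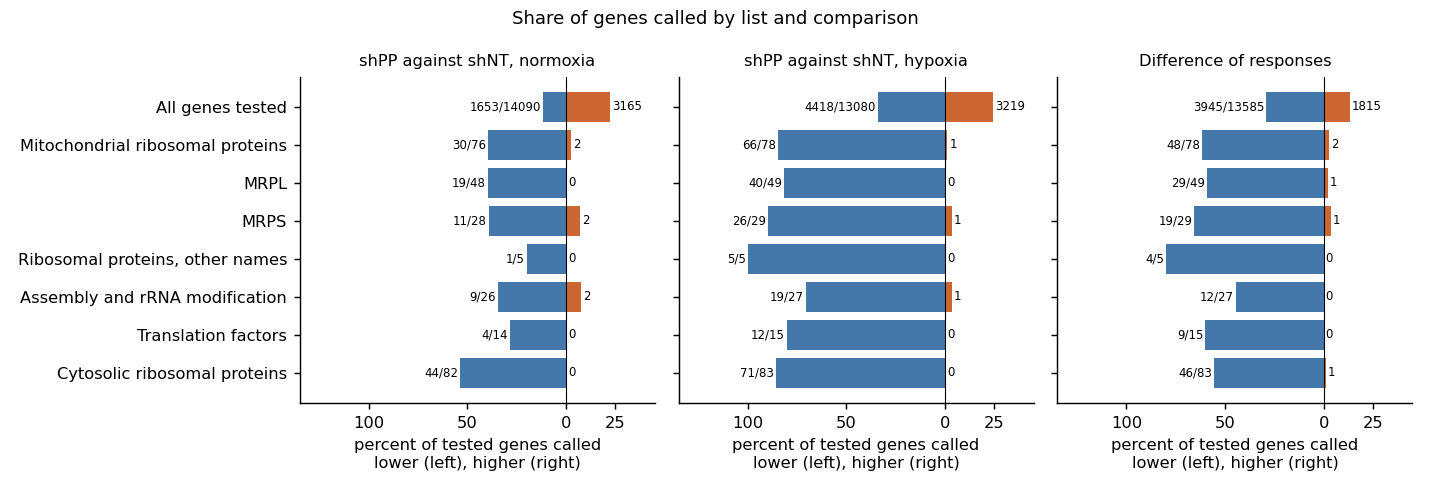
Percent of tested genes called lower (blue, left) and higher (orange, right) in shPP, or more negative and more positive under hypoxia for the difference of responses, by list. Bars carry the number called lower of those tested and the number called higher; the difference of responses of the members includes MRPL53 and MRPS24, which were not tested under normoxia. The mitochondrial and the cytosolic ribosomal proteins both lie far to the left of all genes under hypoxia.

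The neighbours of the members were read last. In GENCODE 29, 17 members have a coding gene on the opposite strand that starts at most 1000 bases before their own start. Such a partner runs the other way, and 2 of the members, MRPL46 and MRPS11, are each other's partner. Opposite-strand genes that overlap the start of a member, such as PSMA2 at MRPL32 and SARS2 at MRPS12, were not counted as partners. Of the other 15 partners, 3 of 12 were lower and 2 higher under normoxia and 9 of 14 were lower and 0 higher under hypoxia (median -0.50) by limma, with 0 higher there at an unadjusted p under 0.05 as well, against 11.7% lower and 22.5% higher over all genes under normoxia and 33.8% lower under hypoxia. Higher under normoxia were SKA3, the partner of MRPL57 (0.28), and MITD1, the partner of MRPL30 (0.21). IGHMBP2, the partner of MRPL21, had -0.96 under hypoxia, and NDUFS6, a complex I subunit that is the partner of MRPL36, had -0.63. EME1 and EME2, both subunits of DNA structure-specific endonucleases, had -1.22 and -1.47. Of the 17 members with a partner, 15 were lower under hypoxia. MRPL46 and MRPS11 both fell under hypoxia (-0.39, SE 0.13 and -0.56, SE 0.15) and both lost the call in fits with 1 library left out, MRPL46 without shNT replicate 1, shNT replicate 2 or shPP replicate 1 (limma adjusted p up to 0.240) and MRPS11 without shNT replicate 1 or shPP replicate 2 (up to 0.0765).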

How the data were processed

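The authors deposited RPKM by gene symbol for normoxia and FPKM by Ensembl identifier and symbol for hypoxia, per the file headers; each table was normalized apart. HISAT2 2.1.0 on GRCh38 did the alignment, after adapter and quality trimming by cutadapt 1.18 and Trimmomatic 0.35 and FastQC checks, per the submitters' processing notes. What counted the reads, and on which annotation, is not given in the sources used here, and 4 columns of samples not of this series were not used. The normoxia RPKM steps of single-exon genes gave the depths (90.4% to 91.1% of values within 0.02 of a whole read); these shares were maximized by the choice of depth.

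Each table was fitted whole with limma 3.58.1 in R 4.3.3 (moderated test with a mean-variance trend, log2(value + 1), which understates changes of low genes; mean of at least 1), with p-values adjusted by Benjamini-Hochberg over all genes tested and calls at 0.05. The difference of responses was the interaction in all 8 libraries, over symbols used once in both tables. Python 3.11.15, pandas 2.3.3 and numpy 2.4.6 read the tables. Coordinates came from the deposited annotated sheet (GRCh38), overlaps from GENCODE 29 and promoters from RefSeq (GRCh38.p14). The steps were tested on simulated data.

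The members and lists were chosen with earlier results of these data known. Named were the 10 lowest and 10 highest called members without overlap per oxygen level, the 5 largest differences of responses each way, the 3 highest, 3 lowest and 3 least changed members, the S18 relatives, members of unusual place and untested members; others were chosen after their values were seen. Alternatives were other pseudocounts (0.1, 0.01), filters (none, mean of at least 5) and scalings, a robust fit, all 8 libraries in 1 fit, a replicate block, and each library left out.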

Additional observations from a re-analysis of the deposited data

Results flagged for a closer look

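These members had a knockdown difference that differed between oxygen levels by the interaction term of the limma fit (Benjamini-Hochberg adjusted). More negative under hypoxia were MRPL38 (-1.28), MRPL52 (-1.04), MRPL22 (-0.99), MRPS21 (-0.98) and MRPL55 (-0.96), and more positive were MRPL45 (0.42) and MRPS6 (0.42). In all, 48 members were called more negative under hypoxia, where 29% of all genes were. MRPL53 and MRPS24 are among them only through their change under hypoxia, since both were near 0 and not tested under normoxia. Among genes tested in both tables it was 46 of 76 members and 30.6% of all genes. The tables of both oxygen levels were made apart, and for this difference table and oxygen level cannot be told apart.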

How the results depend on the processing

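With 2 libraries a group, unknown depth under hypoxia and tables normalized apart, calls near the threshold are uncertain. Scaling moved the number of lower members under normoxia both ways, to 38 with median-ratio scaling and 21 without mitochondrial genome genes. It was 26 in 1 fit of all 8 libraries. The count of lower members under normoxia (30) was 13 with no filter on low values and 15 to 29 with 1 library left out; that of higher members (2) was 0 with no filter, with median-ratio scaling and in 1 fit of all 8 libraries, 4 when scaled without mitochondrial genome genes, and 0 to 1 with 1 library left out. The members' median under normoxia was -0.22 with median-ratio scaling and -0.094 without mitochondrial genome genes, and under hypoxia -0.55 and -0.43, and -0.70 to -0.54 with 1 library left out. The large minus small subunit median under hypoxia (-0.16) was -0.23 to -0.14 with 1 library left out. More positive differences of responses (2) were 4 with either scaling. Lower calls under hypoxia (66) ranged from 50 with no filter to 70, and more negative differences (48, with MRPL53 and MRPS24) were 36 with no filter or median-ratio scaling. Over all genes the split of lower and higher calls, 11.7% and 22.5% under normoxia, was 17.3% and 16.3% with median-ratio scaling, that of 33.8% and 24.6% under hypoxia, was 22.9% and 35% without mitochondrial genome genes, and for the difference 29% and 13.4%, it was 20.6% and 20.4% with median-ratio scaling. Why these moved was not tested, beyond more genes being tested with no filter. Same-numbered libraries did not deviate together (r 0.04 under normoxia, -0.02 under hypoxia), and with the replicate block 29 and 69 members were lower and 48 differences more negative.

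Of 115 pairs of a named gene and a comparison, 24 changed sign under at least 1 alternative, 0 of them called by limma, and the alternatives were tabulated for called pairs, those the naming rule chose, the S18 relatives, members of unusual place, and all comparisons of genes named for the difference of responses. This limit was set after the many sign changes near 0 had been seen. With median-ratio scaling the signs turned for MRPL10 (0.051) and MRPL49 (0.028) under hypoxia, MRPL19 (0.087) and MRPL49 (0.073) in the difference, and MRPL22 (-0.023), MRPL52 (-0.064), MRPS22 (-0.069) and MRPS35 (-0.071) under normoxia. Without mitochondrial genome genes they turned for MRPL10 (0.17), MRPL49 (0.14) and MRPL51 (0.099) under hypoxia, MRPL19 (0.074) and MRPL49 (0.061) in the difference, and MRPL38 (0.030), MRPS11 (0.039), MRPS18A (0.028) and MRPS36 (0.038) under normoxia. With 1 library left out, values crossed 0 under hypoxia for MRPL10 (-0.14 to 0.11) and MRPL51 (-0.22 to 0.033), in the difference for MRPL54 (-0.075 to 0.22), and under normoxia for MRPL22 (-0.048 to 0.15), MRPL38 (-0.11 to 0.069), MRPL52 (-0.0022 to 0.025), MRPS11 (-0.048 to 0.028), MRPS18A (-0.22 to 0.17), MRPS22 (-0.046 to 0.058), MRPS35 (-0.027 to 0.037) and MRPS36 (-0.072 to 0.047).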
